A study of Mus musculus with 194 samples.

Results

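The transcription regulators Sox9, Rfx4, Npas3, Id3, Id4, Dbx2, Sall1 and Gli3 were followed across the calling card libraries of mouse brain. They were chosen by name, and all 8 have a gene body in the RefSeq annotation of GRCm38. The locus of each gene was its body with 10 kb on each side, and they are 8 of 21631 protein-coding loci counted in the same way. An insertion was 1 row of a deposited table, and the level of a locus was its number of insertions per 1000000 insertions of that table (IPM).

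Astrocytes and the radial glia they come from are kept in their identity by a small set of transcription regulators. Sox9 is a high-mobility-group factor needed for the switch of neural progenitors to glial fates, Rfx4 a winged-helix factor of brain patterning, Npas3 a basic helix-loop-helix PAS factor and Dbx2 a homeobox factor of neural progenitors. Id3 and Id4 lack the basic region that binds DNA and hold other helix-loop-helix factors away from it, Gli3 is a zinc-finger effector of Hedgehog signalling that acts mainly as a repressor, and Sall1 is a zinc-finger repressor, also known from microglia.

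In calling cards a transposase inserts a transposon at TTAA sequences of the genome, and the inserted transposon is read later as a record of where the enzyme, or a factor fused to it, had been. The labels name an injection of adeno-associated virus on postnatal day 0 to 1 for the mouse groups, but neither the transposase nor the constructs that SP1 and Frontflip stand for. The 11 mouse groups were Syn1Cre (6 animals), Syn1CreNeg (6), GFAPCre (6), GFAPCreNeg (6), C57bl6J (2), BrokenHeart (3), Syn1Cre_SP1_P28 (4), Syn1Cre_SP1_P10 (3), Rbp4Cre_TRAP (4), Frontflip_GFAPCre (3) and Frontflip_GFAPCreNeg (3), and 1 table held 3 pooled experiments on N2a, a mouse neuroblastoma line. The C57bl6J animals received viruses that do not need Cre, per the series design. The names give a Cre line or its negative, and the age at collection is given only for the SP1 groups (P10 and P28). The Syn1 promoter is active in neurons, the GFAP promoter in astrocytes and, during development, in progenitors that also give rise to neurons, and Rbp4-Cre marks cortical layer 5 pyramidal neurons. SP1 is a zinc-finger factor that binds GC boxes. BrokenHeart insertions were read from DNA and all others from RNA made by the self-reporting transposon, so that a position has to be transcribed out of the transposon to be seen. The tissue was cortex in all mouse groups other than Rbp4Cre_TRAP, which came from whole forebrain by affinity purification with 2 libraries per animal.

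The genes differ widely in size. The bodies are Sox9 at chr11:112782210-112787757 (5.548 kb), Rfx4 at chr10:84756036-84906538 (150.503 kb), Npas3 at chr12:53248026-54072173 (824.148 kb) and Dbx2 at chr15:95623563-95654771 (31.209 kb). Those of the helix-loop-helix inhibitors are short, Id3 at chr4:136143822-136145392 (1.571 kb) and Id4 at chr13:48261116-48266028 (4.913 kb). Sall1 lies at chr8:89027242-89044162 (16.921 kb) and Gli3 at chr13:15463723-15730026 (266.304 kb). No other protein-coding gene body reaches into any of the 8 loci. Levels of different genes are therefore compared only per kb of locus.

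RefSeq promoter sequences (GRCm38.p6, 250 bases before to 50 after a start) were found for 7 of the 8 genes, in 10 entries. The 4 printed here include those of Id3 and Id4, the loci called higher in the SP1 libraries at P28. The others are those of Npas3 and Dbx2, called lower with Cre in both lines. Sall1 and Gli3 were also called lower in both lines, and their promoters are not printed. Each is written 5′ to 3′ on the strand of the gene, and capitals mark GC boxes (GGGCGG or CCGCCC, so both strands) and TTAA.
Id3, chr4:136143572-136143871, plus strand: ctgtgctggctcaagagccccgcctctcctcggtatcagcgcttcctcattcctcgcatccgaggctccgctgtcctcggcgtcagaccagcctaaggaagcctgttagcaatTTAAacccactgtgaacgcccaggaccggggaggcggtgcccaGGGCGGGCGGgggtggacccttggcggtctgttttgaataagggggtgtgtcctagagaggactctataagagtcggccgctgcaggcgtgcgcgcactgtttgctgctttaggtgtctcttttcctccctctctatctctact
Id4, chr13:48260866-48261165, plus strand: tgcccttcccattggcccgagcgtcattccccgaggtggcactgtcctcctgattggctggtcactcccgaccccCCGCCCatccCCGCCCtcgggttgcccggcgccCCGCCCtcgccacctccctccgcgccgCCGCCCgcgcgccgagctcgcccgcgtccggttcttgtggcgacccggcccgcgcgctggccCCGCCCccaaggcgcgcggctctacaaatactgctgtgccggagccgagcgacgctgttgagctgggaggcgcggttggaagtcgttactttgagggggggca
Npas3, chr12:53248182-53248481, plus strand: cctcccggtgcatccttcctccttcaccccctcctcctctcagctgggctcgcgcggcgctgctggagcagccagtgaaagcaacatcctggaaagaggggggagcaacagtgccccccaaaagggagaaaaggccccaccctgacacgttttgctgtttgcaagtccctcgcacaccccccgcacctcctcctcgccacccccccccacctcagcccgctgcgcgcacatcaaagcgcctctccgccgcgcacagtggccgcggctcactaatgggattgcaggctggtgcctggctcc
Dbx2, chr15:95654722-95655021, minus strand: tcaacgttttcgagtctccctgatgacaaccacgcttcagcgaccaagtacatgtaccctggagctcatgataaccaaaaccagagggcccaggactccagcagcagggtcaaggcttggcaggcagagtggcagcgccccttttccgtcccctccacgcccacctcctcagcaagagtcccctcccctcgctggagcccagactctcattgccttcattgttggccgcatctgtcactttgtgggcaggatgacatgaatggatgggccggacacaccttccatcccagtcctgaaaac
The Id3 promoter holds 2 GC boxes that overlap each other, at -94 and -90 from its start, and 1 TTAA at -137, with 43 bases between the starts of the TTAA and the nearer GC box. The Id4 promoter holds 5 GC boxes and 0 TTAA, and those of Npas3 and Dbx2 hold neither motif. This does not hold for all loci called lower with Cre in both lines. The Gli3 promoter holds 2 GC boxes and 0 TTAA, and the Sall1 entries hold 0, 4 and 1 GC boxes, the first with 1 TTAA. A GC box is found in 35.7% and TTAA in 52.4% of all 32851 promoter entries of this length. A match of letters is a description of the sequence, not a measured binding site.

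Depth set the precision. The animals of the 4 large groups had 97519 to 1505413 insertions, C57bl6J 1545951 and 2186743, the SP1 groups 86842 to 577609, BrokenHeart 42511 to 98197, Rbp4Cre_TRAP 24408 to 57014 and Frontflip_GFAPCre 160631 to 205559. Frontflip_GFAPCreNeg, with 2341 to 9601 insertions, entered no test. The Cre-negative groups were shallower than their Cre groups, with medians of 268446 (Syn1CreNeg) and 426310 (GFAPCreNeg) against 865698 (Syn1Cre) and 757227 (GFAPCre). In these bulk libraries fewer labelled cells of a type and fewer insertions per cell cannot be told apart.

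Per kb of locus, Sall1 carried the most insertions of the 8 genes in the Cre-negative animals. Its level in Syn1CreNeg was 13.2 ± 1.97 IPM per kb (SD, n = 6), 48.7 times that of the median protein-coding locus, and 99.9% of loci were lower. Dbx2 followed with 7.31 and Sox9 with 4.72 in the same group. Rfx4 was the lowest there, at 0.556 IPM per kb. The spread among the genes was smaller in Syn1Cre, from 3.83 for Sall1 to 0.546 for Rfx4.

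Over the groups Rfx4 varied least. Rfx4 ranged from 72.2 to 118 IPM over the 6 Syn1Cre animals, from 61.5 to 134 in Syn1CreNeg, from 73.5 to 114 in GFAPCre and from 83.8 to 131 in GFAPCreNeg. Its highest group mean, that of BrokenHeart, was 2.02 times its lowest, that of Frontflip_GFAPCreNeg, which rests on 2 insertions in animal 1. The same ratio was 7.17 for Sox9, 13.0 for Gli3, 16.6 for Dbx2, 17.8 for Npas3, 29.9 for Sall1 and 61.6 for Id3, in each of these 6 genes with the shallow Frontflip_GFAPCreNeg animals highest and Rbp4Cre_TRAP lowest. The Id3 ratio rests on 5 insertions over 1, and Id4, which had 0 insertions in Frontflip_GFAPCreNeg, has no such ratio. When the 11 groups are put in order of their mean, the animals of neighbouring groups overlapped in all 10 pairs for Sox9, Rfx4 and Id4, in 9 for Id3, Dbx2 and Sall1, in 8 for Npas3 and in 7 for Gli3. The order is therefore a coarse one, and most neighbours in it do not differ beyond their spread.

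**Figure D1:**
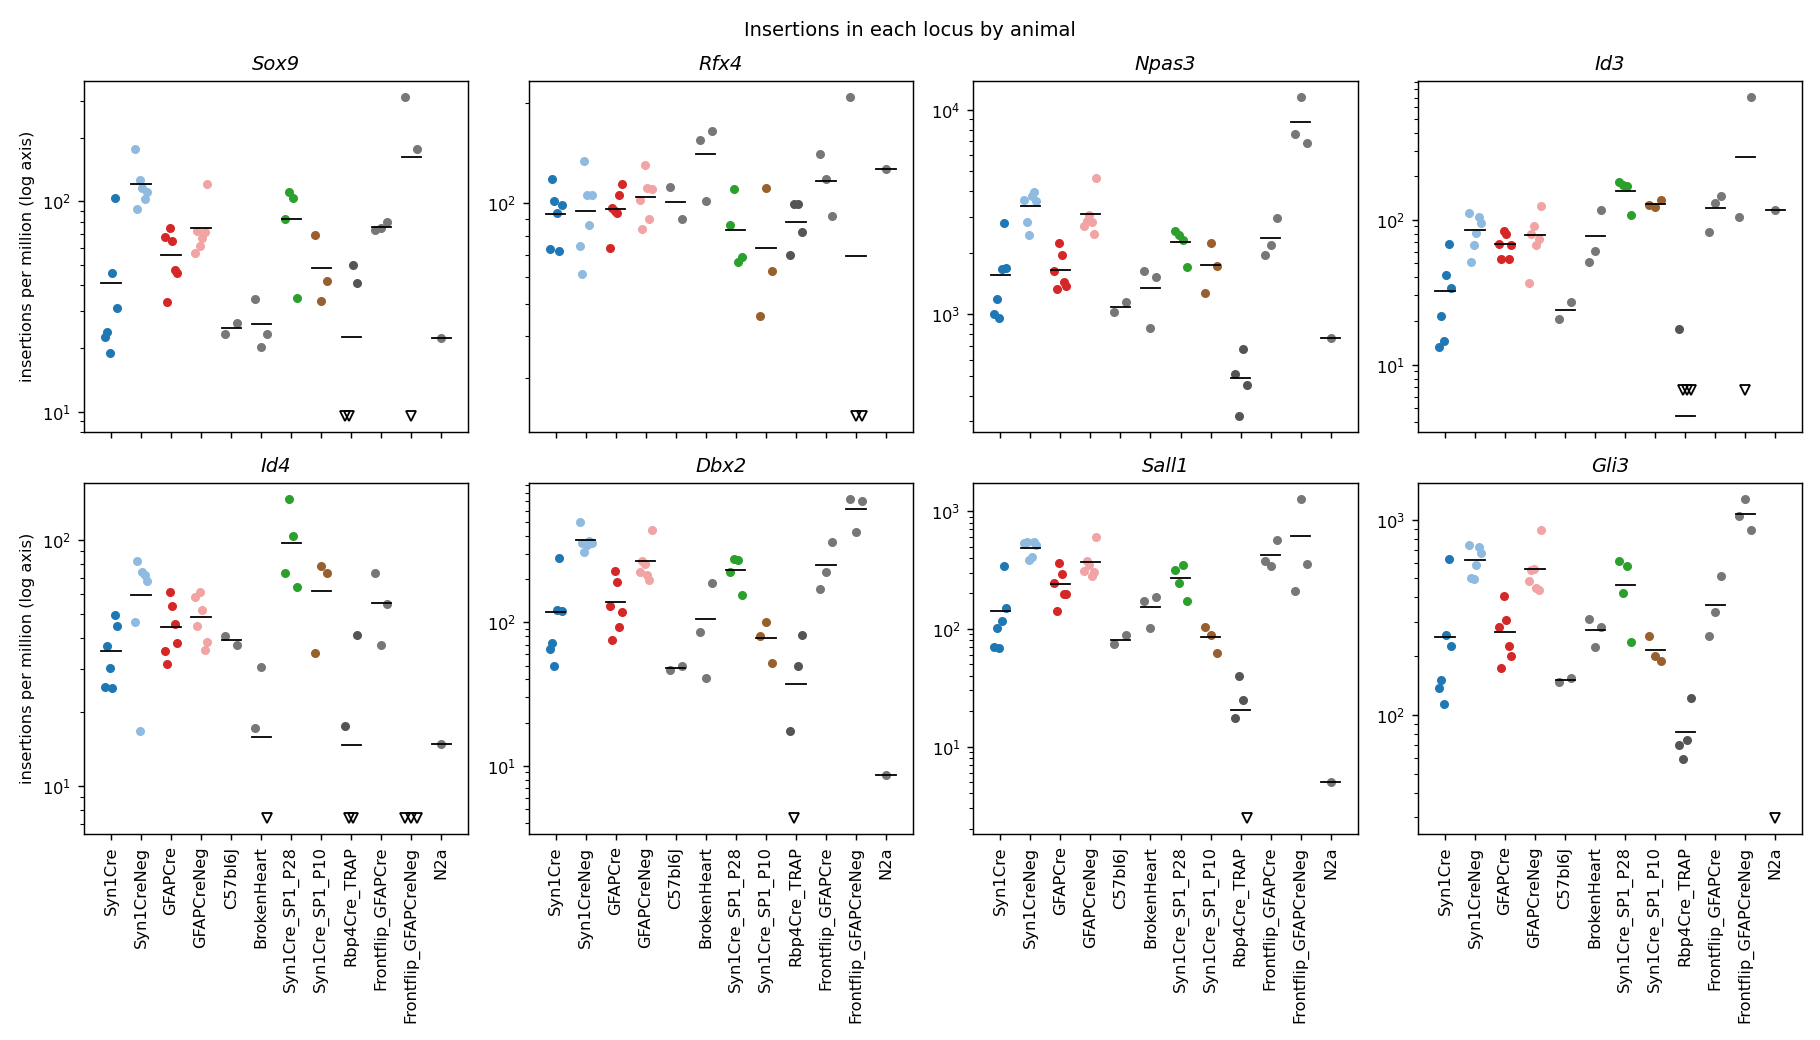
Insertions per 1000000 (IPM) in the locus of each of the 8 genes, on a log axis, for every animal of the 11 mouse groups and the pooled N2a table; dots are animals, horizontal lines group means and open triangles animals with 0 insertions. At Dbx2 and Sall1 all 6 Syn1CreNeg animals lie above all 6 Syn1Cre animals, and at Rfx4 the 4 large groups overlap.

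To see how the loci differed with the neuronal Cre line, Syn1Cre was set against Syn1CreNeg. All 8 loci were tested. Relative to library size, 7 were lower in Syn1Cre, against 30.7% of 8731 loci called in either direction and 17.5% called lower (edgeR quasi-likelihood test, Benjamini-Hochberg adjusted p under 0.05). The median log2 fold change of the 8 was -1.47, against 0.01 over all loci tested. Rfx4 was the exception.

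Among the developmental factors, Dbx2 had 49.3, 95.9 and 282 IPM as lowest, median and highest value in Syn1Cre and 311, 359 and 502 in Syn1CreNeg. Even the highest Syn1Cre animal lay below the lowest Cre-negative one. The locus changed by -1.73 on the log2 scale, with an SE of 0.26 (edgeR adjusted p = 2.14e-05). Sox9 went from 92.3, 112.8 and 176.8 in Syn1CreNeg to 19.04, 27.5 and 103.8 in Syn1Cre, where only animal 5 reached the Cre-negative range, and the change was -1.67 ± 0.27 (edgeR adjusted p = 4.57e-05).

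Npas3, the longest gene, had 956, 1432 and 2798 IPM in Syn1Cre and 2453, 3608 and 3982 in Syn1CreNeg. The groups overlapped through the highest Syn1Cre animal, and the change was -1.14 ± 0.20 (edgeR adjusted p = 8.84e-05). Rfx4 had group means of 93.0 ± 17.8 and 94.8 ± 26.2 (SD, n = 6 each), and its change of -0.09 ± 0.16 did not pass the test (edgeR adjusted p = 0.716).

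The helix-loop-helix inhibitors fell as well. Id3 had 13.3, 27.5 and 67.7 IPM in Syn1Cre and 51.3, 88.3 and 112 in Syn1CreNeg, with partial overlap, and a change of -1.57 ± 0.27 (edgeR adjusted p = 8.4e-05). Id4 had 24.9, 33.6 and 49.6 against 16.8, 69.9 and 82.0. The groups overlapped through Syn1CreNeg animal 3, the lowest of all with 16.8 IPM from 2 insertions, and animal 1, with 46.5 from 5. The Id4 change was -0.97 ± 0.22 (edgeR adjusted p = 0.00136).

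Of the zinc-finger factors, Sall1 had the largest change of the 8 loci. It had 68.3, 109 and 341 IPM in Syn1Cre and 386, 527 and 543 in Syn1CreNeg, and the groups did not overlap. The change was -1.87 ± 0.26 (edgeR adjusted p = 7.64e-06). Gli3 had 114, 188 and 625 against 496, 631 and 744, overlapping through 1 Syn1Cre animal, and changed by -1.37 ± 0.27 (edgeR adjusted p = 0.000372).

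Animals 1 to 3 and animals 4 to 6 of the Syn1 groups have labels of different layout, a possible batch. No sample label names an animal of the group Syn1Cre together with an animal of another group. Cre and sequencing pool therefore cannot be told apart in this comparison, also within either layout. Animals 1 to 3 alone gave 6 lower calls, without Id4 (-0.60, adjusted p = 0.429), animals 4 to 6 alone gave 7, and the layout as a block gave 7 in edgeR. The size did differ: Dbx2 changed by -2.68 within animals 1 to 3 and by -1.10 within animals 4 to 6, and Gli3 by -2.15 and -0.86.

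Other gene groups moved alongside. Of 13 astrocyte markers tested, 11 were lower in Syn1Cre and 0 higher, and the summed level of the 15 markers listed was 1020 to 3179 IPM in Syn1Cre and 3309 to 4252 in Syn1CreNeg. Of 12 neuron markers tested, 6 were higher and 1 lower, with sums of 3243 to 3910 against 2533 to 3158. Of 26 other astroglial regulators, 22 were tested, 17 were lower and 1 higher. The largest changes among these were -1.96 for Sall3, the paralogue of Sall1, -1.60 for the forebrain homeobox gene Emx2 and -1.54 for Gli2, the paralogue of Gli3. The LIM-homeobox gene Lhx2 was the 1 that rose, by 0.34 ± 0.13 (edgeR adjusted p = 0.0469). The part of cell makeup and of depth in these differences was not tested.

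In the GFAP line the differences were fewer. Of the 8 loci, 4 were lower in GFAPCre than in GFAPCreNeg and 0 higher, against 8.06% of 9242 loci called in either direction and 5.82% called lower. The median log2 fold change of the 8 was -0.49, against 0.02 over all loci tested.

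Npas3 had 1324, 1530 and 2220 IPM in GFAPCre and 2457, 2836 and 4638 in GFAPCreNeg. All GFAPCre animals lay below all Cre-negative ones, and the change was -0.89 ± 0.13 (edgeR adjusted p = 0.000228). Gli3 also separated the groups, with 175, 254 and 405 against 436, 519 and 884 and a change of -1.05 ± 0.17 (edgeR adjusted p = 0.000279).

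Dbx2 had 75.7, 123 and 228 IPM against 197, 240 and 442, overlapping in part, and fell by 0.91 on the log2 scale (SE 0.20, edgeR adjusted p = 0.00426). Sall1 had 143, 223 and 363 against 284, 329 and 601, also with overlap, and a change of -0.59 ± 0.17 (edgeR adjusted p = 0.0293). The Sall1 call was lost without any 1 of GFAPCre animals 1, 2, 5 and 6 or GFAPCreNeg animals 2, 3 and 6, with adjusted p from 0.0501 to 0.0884, and under DESeq2 (0.0528).

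Sox9 (-0.38 ± 0.19, adjusted p = 0.230), Rfx4 (-0.10 ± 0.13, 0.710), Id3 (-0.13 ± 0.18, 0.728) and Id4 (-0.22 ± 0.19, 0.520) did not pass the edgeR test. Some of these animals were sequenced in shared pools. Over the animals that share a pool, the edgeR test called 3 loci, without Sall1, and with the pool as a block only Npas3 (-0.99, adjusted p = 0.0460) and Gli3 (-1.16, 0.0333). Of 13 astrocyte markers tested, 5 were lower and 0 higher (summed level 1316 to 2635 against 2404 to 4946 IPM). Of 23 other regulators tested, 4 were lower and 1 higher, led by Zbtb20 (-0.69) and Gli2 (-0.69), with Lhx2 again the 1 higher (0.41 ± 0.11, edgeR adjusted p = 0.0208).

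Whether the Cre effect differed between the lines was tested by an interaction over the 4 groups. Id3 was the 1 of 8 loci called, with a difference of -1.41 ± 0.35 (edgeR adjusted p = 0.0385), against 0.717% of 10595 loci in either direction and 0.255% in this one. It fell with Cre in the Syn1 line, and in the GFAP line its values overlapped widely, at 53.7, 67.9 and 83.3 IPM in GFAPCre and 36.8, 76.9 and 125 in GFAPCreNeg. Sall1 (-1.26, adjusted p = 0.0655) and Sox9 (-1.26, 0.0810) did not pass. The Id3 call is a narrow one. It was lost under DESeq2 (adjusted p = 0.0976), with each position counted once per animal (0.0815), with insertions of 2 or more reads (0.0821), and without any 1 of 15 animals: Syn1Cre 1, 2, 3 or 6, Syn1CreNeg 1, 4, 5 or 6, GFAPCre 1, 3 or 4, or GFAPCreNeg 1, 2, 4 or 5. Without Syn1Cre animal 5 the test called 4 loci, adding Sox9 (-1.56), Dbx2 (-1.14) and Sall1 (-1.64). Without GFAPCreNeg animal 6 it called 3, adding Sox9 (-1.38, adjusted p = 0.0314) and Sall1 (-1.43, 0.0125), and without GFAPCre animal 2 the same 2 were added (adjusted p = 0.0245 each).

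The negative groups of the 2 lines were compared with each other as a measure of background. None of the 8 loci was called, against 0.0284% of 7040 loci, by edgeR or by DESeq2, and 4 had an unadjusted p under 0.05. These were Sox9 (0.70 ± 0.17 higher in Syn1CreNeg, adjusted p = 0.0654), Dbx2 (0.51, 0.111), Sall1 (0.43, 0.189) and Id4. GFAPCreNeg animal 6 decided this: without it edgeR called 5 loci higher in Syn1CreNeg, namely Sox9 (0.79), Dbx2 (0.64), Sall1 (0.56), Gli3 (0.34) and Npas3 (0.29).

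**Figure D2:**
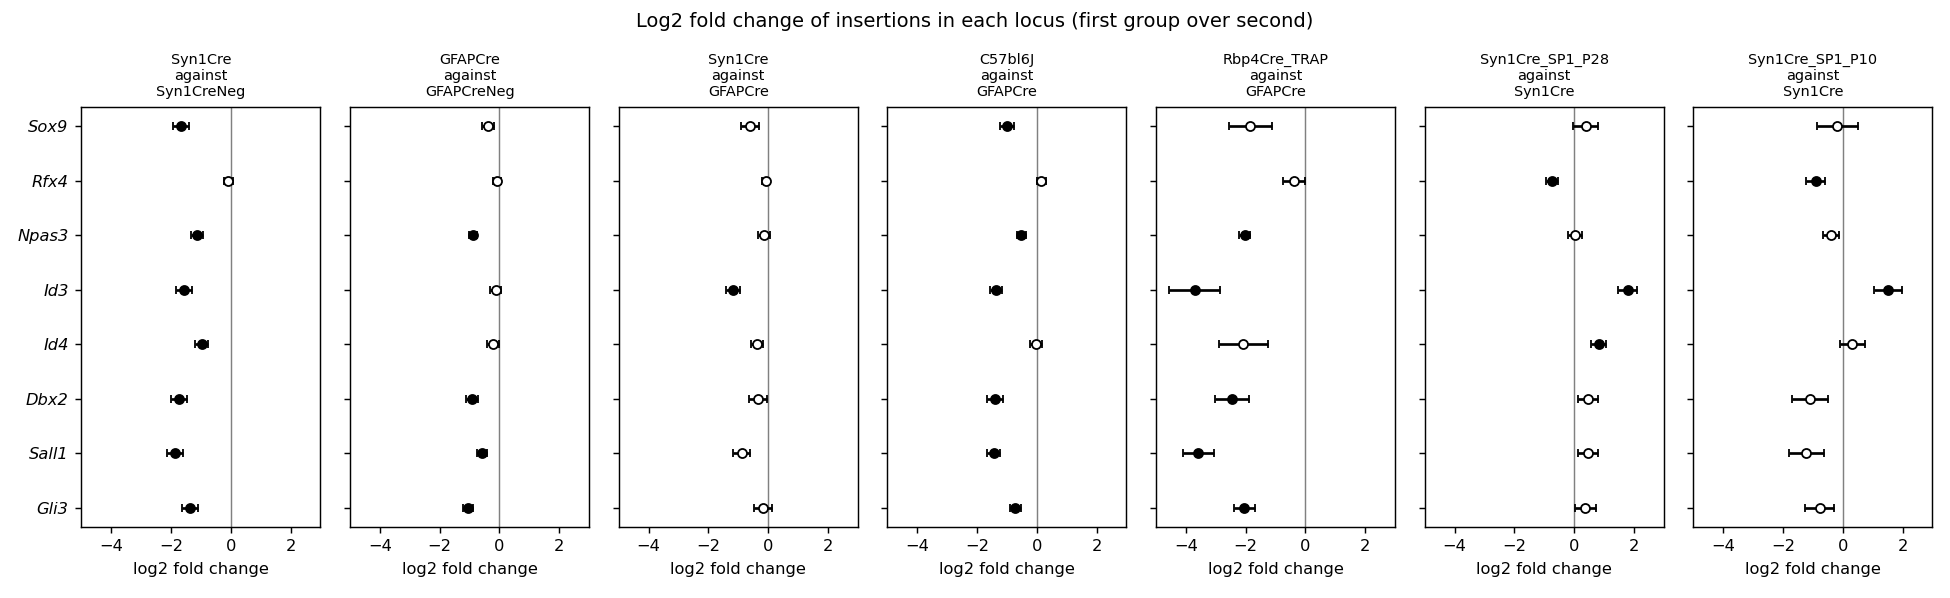
Log2 fold change with its standard error for the 8 loci in 7 comparisons, from the edgeR fits; filled points passed an adjusted p of 0.05 and open points did not. In the Syn1 line 7 of 8 loci are filled and below 0, in the GFAP line 4, and Id3 alone when the Cre groups of both lines are compared, while Id3 is filled and above 0 in both SP1 comparisons.

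Syn1Cre and GFAPCre animals were then compared directly. Id3 was the 1 of 8 loci called, against 2.11% of 11643 loci in either direction and 0.979% lower, and the median log2 fold change of the 8 was -0.35 against -0.01 over all loci. Id3 had 13.3, 14.6, 21.5, 33.6, 41.8 and 67.7 IPM over the Syn1Cre animals and 53.7 to 83.3 in GFAPCre. Only Syn1Cre animal 5 reached the GFAPCre range, and the change was -1.17 ± 0.25 (edgeR adjusted p = 0.00987). The call was lost with each position counted once per animal (-0.71, adjusted p = 0.0648).

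The other 7 loci did not pass the edgeR test: Sox9 -0.60 (adjusted p = 0.289), Sall1 -0.88 (0.106), Id4 -0.37 (0.340), Dbx2 -0.33 (0.620), Gli3 -0.16 (0.828), Npas3 -0.14 (0.790) and Rfx4 -0.08 (0.795). This outcome rests on the Syn1Cre animals that enter. Without animal 5, edgeR called 4 loci lower, adding Sox9 (-0.89), Sall1 (-1.25) and Gli3 (-0.59). Syn1Cre animals 1 to 3, whose labels have the layout of the GFAPCre animals, gave 6 lower calls: Id3 (-2.13), Sall1 (-1.68), Sox9 (-1.42), Dbx2 (-1.26), Gli3 (-1.10) and Npas3 (-0.79). Animals 1 to 3 had fewer reads, 2329351 to 3296669, against 9156081 to 15255197 in Syn1Cre animals 4 to 6 and 5255881 to 19960706 in GFAPCre. Rows with 2 or more reads made up 55.5% to 62.7%, 84.8% to 89.9% and 83.4% to 94.3% in the same order. Within Syn1Cre, animals 1 to 3 had 49.3 to 71.6 IPM at Dbx2 and animals 4 to 6 had 120 to 282. Of 14 astrocyte markers tested, 0 passed in the comparison of all 12 animals, and 3 of 14 neuron markers were higher in Syn1Cre. Of 23 other regulators tested, 3 were lower in Syn1Cre and 0 higher: Pax6 (-0.96), a radial glia homeobox factor, Emx2 (-0.93) and Klf15 (-0.70), a Krüppel-like factor.

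The C57bl6J animals, whose viruses do not need Cre, were set against both Cre groups, and these comparisons share the C57bl6J animals. Against Syn1Cre none of the 8 loci was called, against 0.803% of 14453 loci, by edgeR or DESeq2, with only Dbx2 at an unadjusted p under 0.05. Against GFAPCre 6 were lower in C57bl6J, against 12.4% of 13422 loci in either direction and 5.66% lower. Their median log2 fold change, over all 8, was -0.86.

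At each of these 6 loci both C57bl6J animals lay below all GFAPCre animals. The share of all loci so separated was not counted, and with 2 animals this is a description. Sall1 had 73.7 and 88.7 IPM in C57bl6J against 143 to 363 (-1.45, edgeR adjusted p = 6.51e-05), Dbx2 46.6 and 49.4 against 75.7 to 228 (-1.40, 0.00059), and Id3 20.7 and 27.0 against 53.7 to 83.3 (-1.36, 2.22e-05). Sox9 had 23.3 and 26.5 against 33.2 to 74.9 (-0.997, edgeR adjusted p = 0.00329). The Sox9 call was lost without C57bl6J animal 1 (adjusted p = 0.0641) and with each position counted once (-0.54, 0.177). Gli3 (-0.71, edgeR adjusted p = 0.0150) and Npas3 (-0.53, 0.0209) were lost when either C57bl6J animal was left out, with adjusted p from 0.0872 to 0.275. Without C57bl6J animal 1 the edgeR test called 3 loci and without animal 2 it called 4. Rfx4 (0.15, adjusted p = 0.541) and Id4 (-0.03, 0.953) did not pass. Of 15 astrocyte markers 10 were lower in C57bl6J and 0 higher, with sums of 886 to 941 IPM against 1316 to 2635, and of 24 other regulators tested 10 were lower and 0 higher.

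The SP1 libraries of each age were compared with Syn1Cre, and the 2 comparisons share the Syn1Cre animals. The age of these Syn1Cre animals at collection is not given, so construct and age cannot be told apart here. These fits are relative to a large change everywhere: 50.8% of 12304 loci were called at P28 (25.8% higher and 24.9% lower) and 40.8% of 12861 at P10 (19.7% and 21.1%). The scaling matters here, since the median log2 fold change of all loci moved from -0.06 under TMM to 0.42 under total insertions at P28 and from -0.28 to 0.27 at P10. Of the 8 loci, 3 were called at P28, 2 higher and 1 lower, and 2 at P10, 1 higher and 1 lower.

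Id3 was called higher at both ages. It had 181, 174, 170 and 107 IPM in the 4 P28 animals and 127, 123 and 136 in the 3 P10 animals, against 13.3 to 67.7 in Syn1Cre. Every SP1 animal lay above every Syn1Cre animal. The log2 fold change was 1.79 ± 0.31 at P28 (edgeR adjusted p = 2.81e-05) and 1.51 ± 0.47 at P10 (0.0119). Under total insertions it was 2.27 and 2.06, past the threshold at both ages. At P10 the call was lost without animal 1 (adjusted p = 0.0524) or animal 3 (0.0725), and with each position counted once per animal (0.71, adjusted p = 0.285).

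The most used Id3 site at both SP1 ages was 1 TTAA, the one at -137 in the promoter printed above, 43 bases from the nearer GC box. This site was picked after its values were seen, and its values are a description. At P28 it held 35 of the 151 insertions of the locus (23.2%), in 4 of 4 animals, at 38.8, 45.9, 60.7 and 19.04 IPM. At P10 it held 18 of 35 (51.4%), in 3 of 3 animals, at 46.1, 89.1 and 62.9. In Syn1Cre it held 8 of 171 (4.68%), with 0 to 2.26 IPM over the 6 animals, so that no SP1 animal overlapped with them. The share was 3.14% in Syn1CreNeg, 4.39% in GFAPCre and 6.45% in GFAPCreNeg, and BrokenHeart and Frontflip_GFAPCre had 0 insertions there. The next TTAA upstream among the most used, at -294, held 10 of 151 at P28 and 4 of 35 at P10, against 7 of 171 in Syn1Cre. Because up to 10 parts of a cortex can each report a position, a site can hold several rows per animal.

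Tests on windows of 2 kb on each side of the start gave Id3 1.53 ± 0.28 at P28 (edgeR adjusted p = 1.7e-05) and 1.45 ± 0.40 at P10 (0.00299), where 63.8% and 65.3% of the gene starts tested were called. The start of Id3 had 90.6, 91.8, 85 and 45 IPM at P28 and 80.6, 89.1 and 83.9 at P10, against 3.99 to 15.8 in Syn1Cre, without overlap. A site 3846 bases before the start held 11.1% of the locus in GFAPCre, 12.9% in GFAPCreNeg and 8.77% in Syn1Cre (15 of 171). At P28 it held 5.96% (9 of 151, in 4 of 4 animals) and at P10 0 of 35 insertions. Among the other starts tested, Npas3 was called lower, relative to all gene starts, at P28 (-0.66, edgeR adjusted p = 0.0344) and at P10 (-1.53, 0.00871). The Dbx2 start was called lower at P10 (-2.61, edgeR adjusted p = 0.00552) and not at P28, and the Sall1 start passed at neither age. In IPM the mean of the Npas3 start was not lower. It was 62.2 at P28 (38.1 to 101) and 36.2 at P10 (11.5 to 52.4), against 32.6 in Syn1Cre (20.2 to 63.2). These fold changes are relative to the insertions near all gene starts, with TMM scaling, and IPM to all insertions of a table.

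Id4, the second inhibitor, had 73.3, 147, 103 and 64.1 IPM at P28 and 34.5, 78.0 and 73.4 at P10, against 24.9 to 49.6 in Syn1Cre. The P28 animals were all above Syn1Cre, and 1 P10 animal lay within its range. The change passed at P28 (0.82 ± 0.25, edgeR adjusted p = 0.00842) and not at P10 (0.32, 0.571). Under gene bodies alone the P28 value was 0.66 (adjusted p = 0.129) and the P10 animals had no insertion in the body. The most used Id4 site of the SP1 groups lay 1106 bases before its start, outside the promoter shown, while that of Syn1Cre lay 4232 bases after the start. The site at -1106 held 13 of 87 insertions at P28 (14.9%, 4 of 4 animals), 9 of 17 at P10 (52.9%, 3 of 3 animals) and 8 of 190 in Syn1Cre (4.21%).

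**Figure D3:**
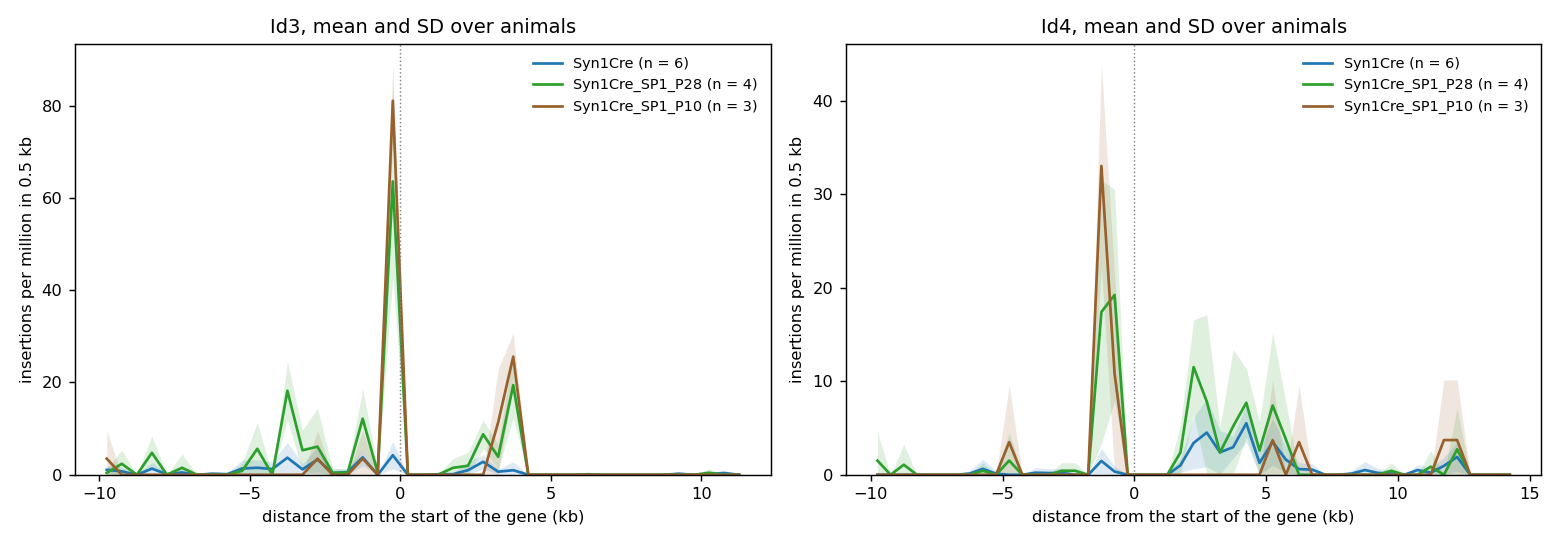
IPM in 0.5 kb steps along the Id3 and Id4 loci against the distance from each gene's start, for Syn1Cre (n = 6), Syn1Cre_SP1_P28 (n = 4) and Syn1Cre_SP1_P10 (n = 3); lines are means and shading is the SD. The SP1 groups peak just before the Id3 start, where Syn1Cre stays low, and about 1 kb before the Id4 start.

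Rfx4 was called lower at both ages, by -0.73 ± 0.20 at P28 (edgeR adjusted p = 0.00312) and -0.90 ± 0.31 at P10 (0.0236). Its IPM were 86.2, 110, 66.8 and 69.3 at P28 and 46.1, 111 and 62.9 at P10. Some of these animals lay below the Syn1Cre range of 72.2 to 118, the others within it, and none above. This call depends on the scaling: under total insertions the values were -0.27 (adjusted p = 0.286) and -0.36 (0.428). With each position counted once they were -0.04 (0.874) and -0.39 (0.363), and for the gene body alone 0.08 and 0.32, in the other direction. At P10 the call was also lost without animal 1 (adjusted p = 0.144) or animal 3 (0.105).

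The other 5 loci did not pass against Syn1Cre at either age: Sox9 (0.39 at P28, adjusted p = 0.449, and -0.18 at P10, 0.851), Npas3 (0.03, 0.930, and -0.40, 0.250), Dbx2 (0.46, 0.272, and -1.10, 0.155), Sall1 (0.47, 0.252, and -1.23, 0.0954) and Gli3 (0.38, 0.385, and -0.77, 0.208). Without Syn1Cre animal 5 the P28 fit called 7 loci, adding Sall1 (0.85), Gli3 (0.84), Dbx2 (0.81) and Sox9 (0.69). With total insertions as scaling, Npas3 (0.54, adjusted p = 0.0295), Dbx2 (0.95, 0.0131), Sall1 (0.96, 0.0106) and Gli3 (0.89, 0.0232) were called higher at P28, and with each position counted once Dbx2 (0.78, 0.0118) and Sall1 (0.80, 0.0195). At P10 the values of Sox9 and Npas3 turned to 0.37 and 0.18 under total insertions, without a call. Without the filter on low counts Dbx2 (-1.21, adjusted p = 0.0266), Sall1 (-1.33, 0.00896) and Gli3 (-0.87, 0.0391) were called lower at P10. Without Syn1Cre animal 1 or 3 the P10 fit called 3, adding Sall1. Of 14 astrocyte markers tested 3 were higher and 0 lower at P28, and of 15 tested at P10 1 was higher and 3 lower, with sums of 1645 to 3450 and 1427 to 1793 IPM against 1020 to 3179 in Syn1Cre. Of 26 other regulators, 3 were higher and 6 lower at P28. Id1, another member of the Id family, rose by 1.25 ± 0.35 (edgeR adjusted p = 0.00396), and Hes5 (1.02) and Pax6 (0.80) rose as well, while Hes1 (-0.88), Meis2 (-0.85) and Nfib (-0.81) fell. At P10, 1 was higher, Etv4 (1.44), and 10 lower, led by Zic1, with 0 insertions in the P10 animals, Etv5 (-1.95) and Rorb (-1.61).

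The ages were compared with each other within the SP1 libraries, over 5 of the 8 loci, because Sox9, Rfx4 and Id4 had too few insertions. Of the 5, 3 were higher at P28, against 10.6% of 3564 loci in either direction and 6.79% higher. Sall1 had 315, 248, 352 and 173 IPM at P28 and 104, 89.1 and 62.9 at P10, without overlap (1.71 ± 0.31, edgeR adjusted p = 0.00508). Dbx2 had 224, 275, 273 and 154 against 80.6, 100 and 52.4, again apart (1.58 ± 0.30, 0.00530).

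Gli3 had 617, 422, 577 and 237 IPM at P28 against 253, 201 and 189, with the lowest P28 animal inside the P10 range, and rose by 1.15 ± 0.29 (edgeR adjusted p = 0.0125). Npas3 (0.44, adjusted p = 0.172) and Id3 (0.31, 0.540) did not pass. Without P10 animal 3 no locus was called (adjusted p from 0.0554 to 0.114), without P10 animal 2 Gli3 was lost (0.0866), and without P28 animal 4 Npas3 was added (0.55, 0.0108). With each position counted once Dbx2 (0.99, 0.0608) and Gli3 (0.88, 0.0560) were lost. Of the 7 animals, 6 were sequenced in pools shared between the ages, and these pools form 1 linked set, so that no block could be fitted. Without P28 animal 1, which shared no pool with a P10 animal, Sall1 (1.63, adjusted p = 0.0217), Dbx2 (1.59, 0.0217) and Gli3 (0.97, 0.0487) were called. Of 13 other regulators tested, 4 were higher at P28 and 0 lower, led by Id2 (1.53), Rorb (1.03) and Zbtb20 (0.89). Of 8 astrocyte markers tested 2 were higher at P28 and 0 lower, with a median log2 fold change of 0.75 against 0.02 over all loci, and their part in the result was not tested. The time from injection to collection and the age cannot be told apart.

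Npas3 is long enough to be followed along its length, in 44 windows of 20 kb. Of 36 windows tested, 31 were lower in Syn1Cre than in Syn1CreNeg and 0 higher, against 38.1% of 11959 windows in the genome called and 21.2% lower. Of 38 tested, 23 were lower in GFAPCre than in GFAPCreNeg and 0 higher, against 7.35% of 15223 called and 6.25% lower. The largest called changes were -1.72 ± 0.24, between 171.98 and 191.97 kb after the start (edgeR adjusted p = 2.5e-05), in the first comparison and -1.49 ± 0.26, between 371.98 and 391.97 kb, in the second (edgeR adjusted p = 0.000908). The window with the most insertions in GFAPCre spanned the start and held 137 ± 36.0 IPM (SD, n = 6), 8.21% of the locus. Of 39 windows tested between Syn1Cre and GFAPCre, 0 were called by edgeR, against 2.58% of 22672.

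The start of Npas3 had 20.2, 27.4 and 63.2 IPM within 2 kb in Syn1Cre and 50.4, 70.8 and 149 in Syn1CreNeg (-0.86, edgeR adjusted p = 0.00256, against 36.9% of starts called). In the GFAP line, 22.6, 39.5 and 60.0 stood against 44.4, 50.3 and 120, and this change of -0.19 did not pass (edgeR adjusted p = 0.573). Dbx2 and Sall1 gave the same picture at their starts: -1.23 and -1.36 in the Syn1 line (edgeR adjusted p = 0.000226 and 0.000141), and -0.28 and -0.06 in the GFAP line (0.457 and 0.890), where 0 of 4 starts tested passed and 5.81% of all starts did. The difference between the lines at the Sall1 start passed the interaction test (-1.25 ± 0.33, edgeR adjusted p = 0.0432, against 0.941% of 1488 starts). Those at the starts of Npas3 (-0.62, edgeR adjusted p = 0.276), Dbx2 (-0.90, 0.153) and Id3 (-0.60, 0.537) did not pass it. In the direct comparison the Sall1 start was also lower in Syn1Cre than in GFAPCre (-1.02 ± 0.26, edgeR adjusted p = 0.0376). Its values overlapped, at 8.96 to 42.9 and 15.9 to 46.6 IPM. The starts of Id3 (edgeR adjusted p = 0.0834), Dbx2 (0.376) and Npas3 (0.425) did not pass there.

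**Figure D4:**
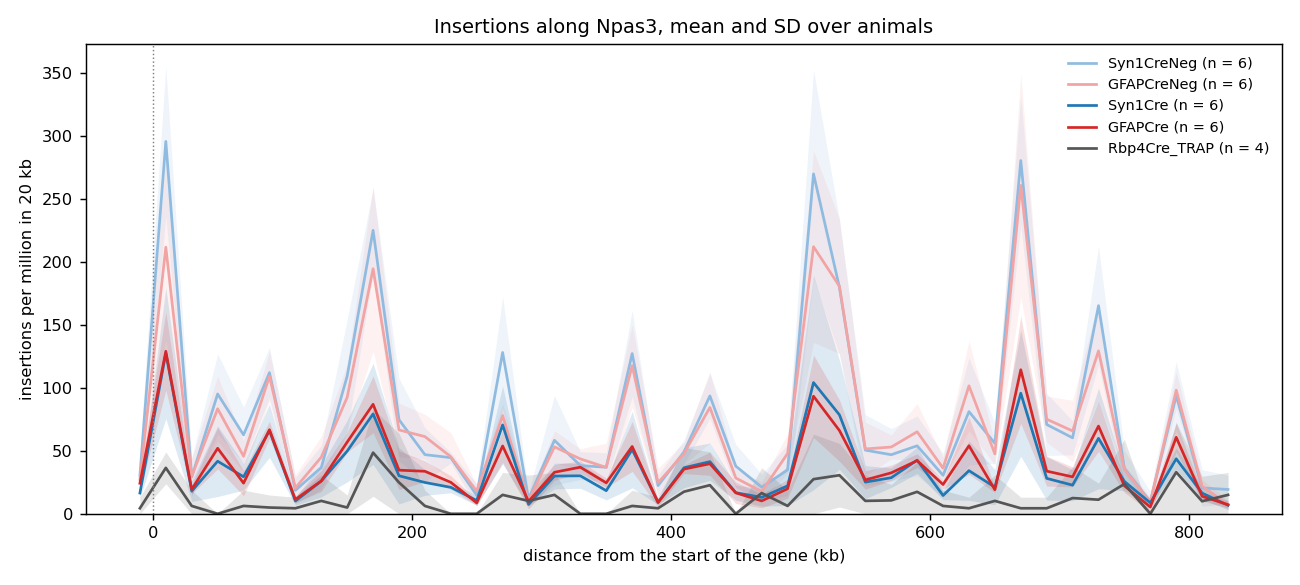
IPM in 20 kb steps along the Npas3 locus against the distance from its start, for 5 groups; lines are means and shading is the SD over animals. The Cre-negative groups lie above their Cre groups along most of the gene and the profile peaks at the start.

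At Rfx4 many insertions lay past the gene. In Syn1Cre 59.2% of them lay in the 10 kb after its end, and in Syn1CreNeg, GFAPCre and GFAPCreNeg 48.6%, 50.5% and 47.5%. The share was 32.1% to 39.6% at Id4 in these groups, and the short Id3 had 0% to 2.15% in its body and 79.8% to 81.2% before its start. Of the Rfx4 insertions after its end, 65.1%, 63.5%, 66.8% and 69.0% lay within 1 kb of it, in the same order of groups. They lay on a cluster of TTAA that includes 150904, 151037 and 151183 bases from the Rfx4 start, with 43, 49 and 38 of the 532 Syn1Cre insertions. The nearest other coding gene, Ric8b, is 10.73 kb away. The body alone had 35.3 ± 9.32 IPM in Syn1Cre, 41.8 ± 13.3 in Syn1CreNeg and, as the higher values, 45.8 ± 10.3 in GFAPCre and 52.4 ± 12.05 in its negative group (SD over 6 animals each). The region after the end had 55.7 ± 14.3, 50.3 ± 27.5, 48.1 ± 10.1 and 48.9 ± 7.05. At P10 the SP1 animals had 51.4 ± 34.0 in the body and 14.8 ± 6.53 after the end (n = 3), with 0 insertions in the first kb after it.

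**Figure D5:**
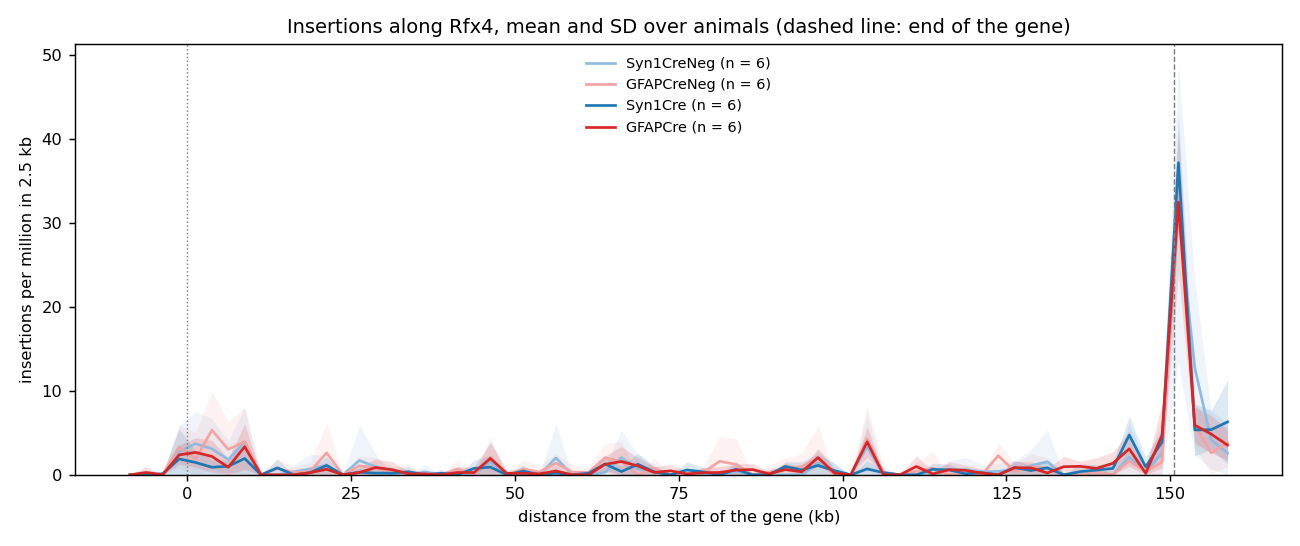
IPM in 2.5 kb steps along the Rfx4 locus against the distance from its start, for 4 groups; lines are means, shading is the SD over animals, the dotted line marks the start and the dashed line the end of the gene. The highest step lies just past the end of the gene, outside the body.

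Single positions also stood out at Sox9, whose strand is not given in the annotation used, so that distances run from its lower coordinate. A TTAA 2142 bases below that end held 32.7% of the Sox9 insertions in Syn1Cre (66 of 202), 34.2% in Syn1CreNeg (69 of 202), 32.5% in GFAPCre (89 of 274), 44.4% in GFAPCreNeg (80 of 180) and 36.8% in SP1_P28 (25 of 68). Its share was 2 of 13 at P10, where the site at 1440 held 4 of 13 and was found in 3 of 3 animals. At Dbx2 and Sall1 the most used sites held less, 7.7% to 10.0% and 6.1% to 6.6% of the locus over the 4 large groups.

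The DNA libraries allowed a comparison with a readout that does not need transcription from the transposon. BrokenHeart and C57bl6J were compared over 4 of the loci, since the other 4 had too few insertions in BrokenHeart. Only Gli3 was called, higher in BrokenHeart, where 39.7% of 1883 loci were called and 18.7% were higher. Gli3 had 309, 224 and 282 IPM against 147 and 155, without overlap (0.72 ± 0.23, edgeR adjusted p = 0.0118), but the call was lost without any 1 of the 5 animals (adjusted p from 0.108 to 0.599), without the filter on low counts (0.759) and with each position counted once (0.0816). Sall1 (0.71, adjusted p = 0.0841, but 1.21 and 0.00300 with each position counted once), Rfx4 (0.33, 0.431) and Npas3 (0.14, 0.479) did not pass. Of 5 astrocyte markers tested 3 were higher in BrokenHeart and 0 lower (summed level 1466 to 2376 against 886 to 941 IPM), of 9 neuron markers 1 was higher and 5 lower, and of 12 other regulators 2 were higher and 6 lower. The readout, the construct and the virus cannot be told apart here.

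In the shallow Rbp4Cre_TRAP libraries few insertions lay in the loci, although per kb 7 of the 8 were above the median protein-coding locus of these libraries, from 1.13 times at Gli3 to 3.51 times at Sox9, and Id3 was below it at 0.802 times. Id3 had 17.5, 0, 0 and 0 IPM, Sall1 17.5, 39.7, 25.0 and 0, and Npas3 509, 318, 674 and 451. All 4 animals lay below every GFAPCre and every Syn1Cre animal at Sall1 and Npas3. The share of all loci so separated was not counted. The median log2 fold change over all loci tested was itself below 0, at -0.29 against GFAPCre (-2.06 for the 8) and -0.32 against Syn1Cre (-1.95). Against GFAPCre, 5 of 8 were lower and 0 higher, against 6.1% of 10325 loci in either direction and 5.38% lower.

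The changes were -3.70 ± 0.85 for Id3 (edgeR adjusted p = 0.00211), -3.58 ± 0.52 for Sall1 (2.17e-07), -2.45 ± 0.58 for Dbx2 (0.00300), -2.04 ± 0.36 for Gli3 (3.42e-05) and -2.03 ± 0.19 for Npas3 (3.12e-14). Sox9 (-1.85, adjusted p = 0.113), Id4 (-2.08, 0.119) and Rfx4 (-0.38, 0.631) did not pass. Counts behind these values are small, since an animal held 0 to 4 insertions at every locus but Npas3 and Rfx4. Against Syn1Cre, in a comparison that shares the Rbp4Cre_TRAP animals, 1 of 8 was lower, against 2.08% of 10816 loci called and 1.9% lower: Npas3, by -1.95 ± 0.28 (edgeR adjusted p = 3.79e-05). Sall1 (-2.78, adjusted p = 0.0795) and Gli3 (-1.95, 0.0812) did not pass, and without Syn1Cre animal 5 edgeR called 4 loci, adding Dbx2 (-1.89), Sall1 (-2.43) and Gli3 (-1.54). Astrocyte markers were low in these libraries, with a sum of 417 to 901 IPM against 1316 to 2635 in GFAPCre and with Gjb6, Aldoc and Mlc1 at 0, and 8 of 13 tested were lower. Their part in the result was not tested, and neither was that of the forebrain dissection and the purification.

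Frontflip_GFAPCre was higher than GFAPCre at 3 of 8 loci and lower at 0, against 1.69% of 10475 loci in either direction and 1.44% higher. Sall1 had 375, 342 and 569 IPM against 143 to 363, overlapping slightly (0.90 ± 0.22, edgeR adjusted p = 0.0242). Npas3 had 1951, 2185 and 2943 against 1324 to 2220 (0.56 ± 0.15, 0.0384), and Id3 82.7, 131 and 147 against 53.7 to 83.3 (0.87 ± 0.23, 0.0489), each with its lowest values inside the GFAPCre range. Dbx2 (0.92, adjusted p = 0.0898), Sox9 (0.54, 0.446), Gli3 (0.51, 0.278), Id4 (0.46, 0.563) and Rfx4 (0.36, 0.482) did not pass. No locus was called without Frontflip_GFAPCre animal 2 or 3 or without GFAPCre animal 5 or 6. Under total insertions the Npas3 (adjusted p = 0.0618) and Id3 (0.0660) calls were lost. Without GFAPCre animal 1 or 2 it was 1, and without GFAPCre animal 3 it was 5. Of 14 astrocyte markers tested 6 were higher (summed level 2734 to 4008 IPM), and of 24 other regulators 4 were higher, led by Sox2 (1.06), the progenitor factor that shares its family with Sox9.

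N2a cells gave 1 pooled table and no test. Npas3 had 621 insertions (770 IPM, 95% Poisson interval 710 to 833), Rfx4 102 (126 IPM, 103 to 154) and Id3 95 (118 IPM, 95.3 to 144). Sox9 had 18, Id4 12, Dbx2 7 and Sall1 4 insertions, and Gli3 had 0, for which 3 counts would be 3.72 IPM and the same 2-sided interval reaches 4.57. The intervals cover counting error only. Per kb Id3 was thus the highest of the 8 in this line, at 5.46 IPM per kb, and Sall1, the highest in each of the 4 large groups, had 0.134. At Rfx4, 115 IPM lay in the body and 9.92 after the end, against 35.3 and 55.7 in Syn1Cre.

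The strand column of the tables, whose meaning is not given in the sources used here, showed unequal use. Of the Gli3 insertions, 19.5% in Syn1CreNeg, 16.5% in GFAPCreNeg and 29.0% in C57bl6J were on plus, against 63.5% of 52 in the DNA-read BrokenHeart libraries. At Sall1 the shares were 71.7%, 73.9% and 67.2% against 53.6% of 28, and at Id4 76.3%, 75.8% and 73.1% against 25.0% of 4. Npas3 was close to even, at 43.4%, 42.4%, 52.0% and 43.4%. These shares are descriptions, since rows of 1 animal are not replicates.

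Loci elsewhere in the genome whose group means followed those of the 8 genes most closely were sought over 10 groups (Pearson correlation of log2 means, 7744 loci, at least 1 Mb away). Dbx2 was followed most closely by Kcnj10 (r = 0.991), the potassium channel Kir4.1 of astrocytes, and by Daam2 (0.987). Gli3 was followed by Zhx3 (0.993) and Htra1 (0.989), Sall1 by Slitrk2 (0.990) and Dph5 (0.987), and Npas3 by Chst2 and Pdlim5 (0.986 each). Values for Sox9 were 0.976 (Cpe) and 0.974 (Zhx2), for Id3 0.975 (Rasa2) and 0.974 (Fzd2), for Id4 0.975 (Arf6) and 0.963 (Dcakd), and for Rfx4 0.951 (Ltbp1) and 0.945 (Ralgps2). The points share libraries and depth, and the correlations are descriptions.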

How the data were processed

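Insertions were read in the brains of 46 mice in 11 groups and in N2a cells. The labels list 194 samples, which the authors combined into 47 tables, 1 per animal, per the series design. Each table gives 1 insertion per row with position, strand, barcode and a raw read count as deposited by the authors. The submitters' processing notes name mm10, Novoalign and Bowtie2. Positions lay on TTAA in all transposon RNA tables at 1 offset, so coordinates were read as GRCm38.

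Rows were counted in protein-coding loci (RefSeq gene body with 10 kb on each side), in 20 kb windows and within 2 kb of gene starts. edgeR 4.0.16 (R 4.3.3) compared the counts by its quasi-likelihood F-test after filterByExpr and TMM scaling, with only the groups compared in each fit, and Benjamini-Hochberg adjustment over all loci. Levels use all rows of a table, and fold changes the rows in the features counted with TMM, so they can differ in size and direction. The scripts were tested on simulated data. Alternatives were DESeq2 1.42.0, other scalings, filters, counting rules and batches, and each animal left out. The genes and lists were chosen with earlier results of these data known. Named genes were all 8, up to 3 other regulators per direction with the largest change past the threshold, and the 2 most like loci of each gene.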

Additional observations from a re-analysis of the deposited data

Results flagged for a closer look

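Of 48 groups of 4 to 10 animals checked, 12 had 1 animal whose gap to the nearest other exceeded Dixon's 95% critical value, where chance gives about 1 in 20. Most fell on a pair of animals. Syn1Cre animal 5 was the highest of its group at Sox9 with 103.8 IPM (the others 19.04 to 45.4), at Dbx2 with 282 (49.3 to 122), at Sall1 with 341 (68.3 to 150) and at Gli3 with 625 (114 to 257). GFAPCreNeg animal 6 was the highest at Sox9 with 120 (56.9 to 72.1), at Npas3 with 4638 (2457 to 3061), at Dbx2 with 442 (197 to 269), at Sall1 with 601 (284 to 378) and at Gli3 with 884 (436 to 562). The report names the comparisons in which leaving out either animal changed a call.

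Syn1CreNeg animal 1 was the highest at Dbx2 with 502 IPM (311 to 371). Syn1Cre_SP1_P28 animal 4, the deepest of its group, was the lowest at Id3 with 107 (170 to 181). At Id3, Rbp4Cre_TRAP animal 1 had 17.5 IPM, which is 1 insertion, and the others had 0. The Cre effect on Id3 differed between the Syn1 and the GFAP line by -1.41 on the log2 scale in the interaction test.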

How the results depend on the processing

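Leaving out each animal in turn, the number of the 8 loci called ranged from 1 to 4 for Syn1Cre against GFAPCre, 7 to 7 for Syn1Cre against Syn1CreNeg, 3 to 4 for GFAPCre against GFAPCreNeg, 0 to 5 between the negative groups, 0 to 0 and 3 to 6 for C57bl6J against Syn1Cre and GFAPCre, 3 to 7 and 0 to 3 for SP1 at P28 and P10, 0 to 4 between the SP1 ages, 0 to 0 for BrokenHeart, 1 to 4 and 5 to 5 for Rbp4Cre_TRAP against Syn1Cre and GFAPCre, 0 to 5 for Frontflip_GFAPCre and 0 to 4 for the interaction. Of 1138 log2 fold changes so refitted, 1054 kept their direction and side of the threshold (or had no call in either), 57 lost and 27 gained a call. Of 755 under other alternatives, 684 kept it, 29 lost and 38 gained a call and 4 turned: Rfx4 in gene bodies alone (0.0843 at P28 and 0.32 at P10 for SP1), Id4 there at P10 (-6.72, with no P10 insertion in the body) and Npas3 without the filter in BrokenHeart (-0.41). Of 264 group levels, 158 moved by less than the SD under other scaling or counting.

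Counts moved by more than 1.5 times as follows. With total insertions as scaling, SP1 at P28 gave 6, SP1 at P10 1, Frontflip_GFAPCre 1 and the interaction 2. DESeq2 gave 3 for Rbp4Cre_TRAP against Syn1Cre and 0 for the interaction. Without the filter, Syn1Cre against GFAPCre gave 2, SP1 at P10 5, Rbp4Cre_TRAP against Syn1Cre 4 and the interaction 3. With each position counted once, Syn1Cre against GFAPCre gave 0, SP1 at P10 0, the SP1 ages 1, Rbp4Cre_TRAP against Syn1Cre 2 and the interaction 0. With 2 or more reads, Rbp4Cre_TRAP against Syn1Cre gave 2, Frontflip_GFAPCre 1 and the interaction 0. Gene bodies alone gave 0 for Syn1Cre against GFAPCre, 0 and 1 for SP1 at P28 and P10 and 0 for the interaction, and fewer of the short genes could be tested there. Syn1Cre animals 1 to 3 alone gave 6 against GFAPCre, and the pool as a block gave 2 in the GFAP line. Otherwise the cause was not tested.

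The replicate numbers did not pair the animals, since the correlation of deviations between same-numbered animals ran from -0.275 to 0.19. The replicate block gave 7 for SP1 at P28, 0 for BrokenHeart, 2 for Rbp4Cre_TRAP against Syn1Cre and 0 for the interaction. Depth limits the Rbp4Cre_TRAP, BrokenHeart and P10 results most.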
